A study of Mus musculus with 2 samples.

Results

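The genes described here encode the first steps of WNT signalling: the WNT ligands, the Frizzled receptors, the co-receptors Lrp5 and Lrp6, and the Dishevelled proteins. They were chosen by family membership, and their number is 34 of the 21938 protein-coding genes on the assembled chromosomes, with 19 ligand genes, 12 receptor genes (10 Frizzled genes and the LRP pair) and 3 Dishevelled genes. An EGR1 peak was assigned to a gene when its centre lay in the gene body or within 10 kb of any annotated transcription start site (TSS) of the gene. EGR1 ChIP-seq, in which DNA bound by this activity-induced transcription factor is pulled down with an antibody and sequenced, was performed on frontal cortices of F1 hybrid males of the strains C57BL/6N and 129SvEv at 6 weeks of age. Tissue of several mice was pooled for each of the 2 ChIP experiments, and the mice were neither mutant nor treated as far as the labels say. The other sample of the series, input DNA of the same tissue, was not analysed here.

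The peak list holds 12014 intervals of the mouse genome build mm10, merged over the 2 experiments, of which 11938 lie on assembled chromosomes. Each peak has one value, its irreproducible discovery rate (IDR), a small number where both experiments placed the peak high in their ranking, and no peak above an IDR of 2% was kept. No read counts and no values of the single experiments were used here, so the depth behind a peak is unknown and no spread between replicates can be given. The 95% Wilson intervals below cover counting of genes or peaks only. The tissue is a mixture of cells, a peak does not show which cell type was bound, and a gene without a peak may be bound below the threshold. No expression was measured in these samples.

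WNT ligands are secreted lipid-modified glycoproteins. At the target cell they bind a Frizzled receptor, which spans the membrane several times, and in the canonical branch also LRP5 or LRP6; Dishevelled is then recruited to the membrane, the complex that destroys beta-catenin is inhibited, and beta-catenin enters the nucleus to act with TCF and LEF factors. In the brain the pathway is known for patterning, for axon and dendrite growth and for the assembly of synapses. EGR1 is a zinc finger protein of GC-rich DNA, and its best known binding sequence is read here as GCGTGGGCG or GCGGGGGCG on either strand.

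Of the 34 genes, 15 had an EGR1 peak by this rule, or 44.1% (95% Wilson interval 28.9 to 60.5%), against 39.6% of all protein-coding genes. They shared no peak, and together they held 20 peaks. The genes with a peak were the ligands Wnt2, Wnt3, Wnt4, Wnt5a, Wnt6, Wnt7a, Wnt7b, Wnt10a and Wnt11, the receptors Fzd3, Fzd4, Fzd7 and Fzd9, the co-receptor Lrp6, and Dvl2. Among them only Fzd3, with 2 peaks, and Dvl2, with 5, had more than 1. The remaining 19 genes had none.

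**Figure D1:**
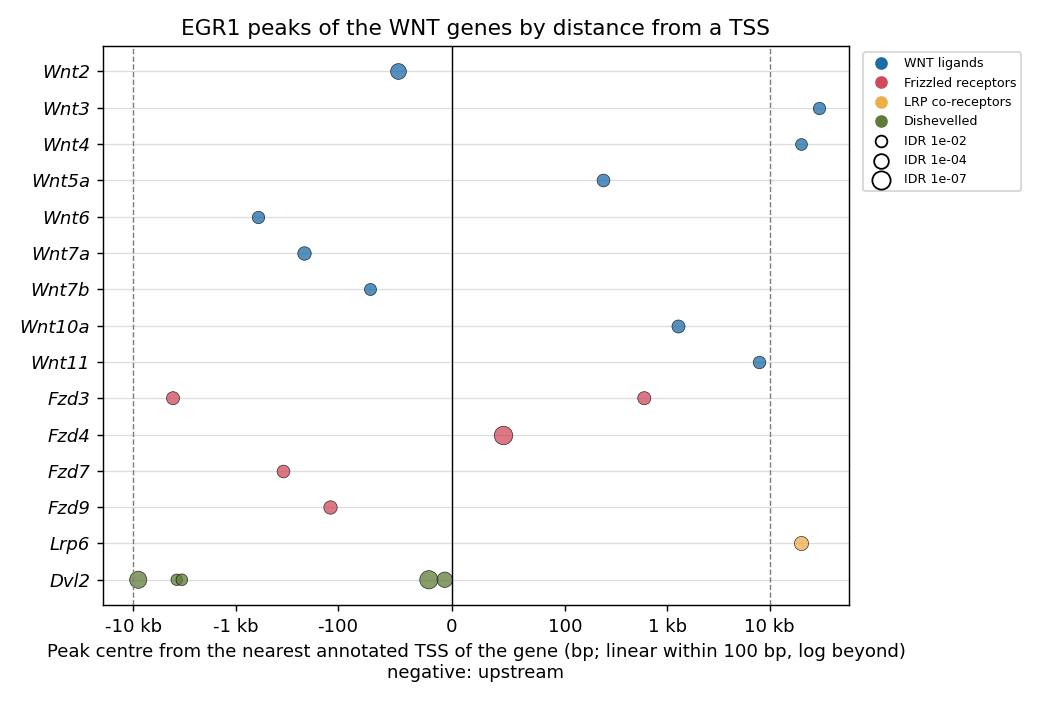
Position of the 20 EGR1 peaks (points) of the 15 WNT genes with a peak, as the distance in bp of the peak centre from the nearest TSS of the gene (x axis, linear within 100 bp and logarithmic beyond; negative values are upstream). Colour gives the role of the gene and a larger point a lower IDR; the largest points belong to Fzd4 and Dvl2, and the points of Wnt3, Wnt4 and Lrp6 lie beyond the dashed line at 10 kb, inside the gene body.

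Among the 19 ligand genes 9 had a peak, each of them a single one. The lowest IDR was that of Wnt2, a ligand of the canonical branch. Its peak, at chr6:18030508-18030757, was centred 47 bp upstream of the only annotated TSS, had an IDR of 1.37e-05 and ranked 3916 among all 12014 peaks. Wnt7a, a ligand known for its part in synapse formation, came next. Its peak at chr6:91411448-91411710 was centred 216 bp upstream of the 5′ end of the gene with an IDR of 0.000713. Its centre was also 66 bp from the start of Gm30437, an annotated locus whose transcript still awaits experimental evidence, so the peak cannot be given to one of these starts alone. Both peaks held an exact GCGGGGGCG, and they were the only ligand peaks with an exact match. The sequences are shown on the strand of the gene, with the exact match in capitals (as its reverse complement, since it lies on the other strand) and, for Wnt2, without the part of the peak that is untranslated sequence. They cover chr6:18030586-18030757 for Wnt2 and chr6:91411448-91411710 for Wnt7a and come from GRCm38.p6, the assembly of mm10.
Wnt2: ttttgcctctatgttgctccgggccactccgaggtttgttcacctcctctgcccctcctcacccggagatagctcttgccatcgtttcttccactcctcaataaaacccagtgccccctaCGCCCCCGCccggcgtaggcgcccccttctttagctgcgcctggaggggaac
Wnt7a: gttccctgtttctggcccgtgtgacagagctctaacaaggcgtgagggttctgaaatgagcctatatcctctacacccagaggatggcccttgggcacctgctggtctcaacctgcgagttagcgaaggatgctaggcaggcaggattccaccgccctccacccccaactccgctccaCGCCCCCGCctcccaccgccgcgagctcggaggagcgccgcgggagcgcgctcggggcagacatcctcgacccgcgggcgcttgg
The match in the Wnt2 peak was centred 1 bp from the peak centre and that in the Wnt7a peak 51 bp from it.

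A further pair of ligand genes had a peak beside a TSS that is not the 5′ end of the gene record. The peak of Wnt5a, the prototype ligand of the non-canonical branch, lay at chr14:28511553-28511816, 233 bp downstream of an internal TSS and 6934 bp from the 5′ end of the gene. It had an IDR of 0.00218, was centred in a non-coding exon of the gene and also lay 292 bp from the start of the antisense gene Gm2670. The peak of Wnt7b, the closest relative of Wnt7a, lay at chr15:85578018-85578267, 72 bp upstream of an internal TSS and 4331 bp from the 5′ end of the gene, in the first intron, with an IDR of 0.00623. Each peak thus lay within 500 bp of a start, but of one of several, since both genes have 6 annotated TSSs. The Wnt7b peak held no exact motif but 3 sites with 1 mismatch, more than any other ligand peak. It is shown on the strand of the gene from chr15:85578071-85578267, without its untranslated part, with the 3 sites in capitals as reverse complements, a pair of them overlapping.
Wnt7b: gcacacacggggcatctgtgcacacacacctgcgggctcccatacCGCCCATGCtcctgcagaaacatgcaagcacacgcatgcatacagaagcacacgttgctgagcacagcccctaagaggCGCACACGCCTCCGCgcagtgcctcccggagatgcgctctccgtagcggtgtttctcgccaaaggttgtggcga

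Wnt6 and Wnt10a are neighbours on chromosome 1, transcribed in the same direction with 6193 bp between them, and each had its own peak. The Wnt6 peak (chr1:74771166-74771415) was centred 602 bp upstream of the TSS with an IDR of 0.00367, and the Wnt10a peak (chr1:74794508-74794757) 1269 bp downstream of a TSS, in an intron, with an IDR of 0.00148. Neither held an exact motif. Of the other neighbouring ligand genes, Wnt3 and Wnt9b had 1 peak, in Wnt3, and neither Wnt1 and Wnt10b nor Wnt3a and Wnt9a had any.

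The peaks of Wnt3, Wnt4 and Wnt11 were far from a start of their gene. The Wnt3 peak (chr11:103804251-103804500, IDR 0.00387) lay 30225 bp downstream of the TSS, in the first intron, and was nearer to a TSS of Nsf, which encodes an ATPase of membrane fusion, at 19725 bp. The Wnt4 peak (chr4:137297668-137297931) lay in the 3′ untranslated region, 20310 bp from the TSS, and had the highest IDR of the ligand peaks, 0.00836. The Wnt11 peak (chr7:98855492-98855755, IDR 0.00315) was centred 428 bp past the 3′ end of the gene, 7817 bp from an internal TSS and 528 bp from the start of the pseudogene Gm8398. These peaks had 7, 3 and 2 CpGs, and the observed/expected CpG ratio, the number of CpGs over the number that the C and G content would give, was 0.288, 0.163 and 0.115. In the other 6 ligand peaks the number of CpGs was 11 to 23.

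Among the 10 Frizzled genes 4 had a peak, and the nearest peak of each lay 45 to 593 bp from a TSS. Fzd4, the receptor of Norrin as well as of WNT ligands, had the peak with the lowest IDR of all 20, 5.73e-08, which ranked 495 among all peaks. At chr7:89404347-89404453 it was also the narrowest, with 107 bp. It was centred 45 bp downstream of the only Fzd4 TSS, in the 5′ untranslated region, and 178 bp from a start of Tmem135 on the other strand. Both starts are therefore within the reach of this peak. The peak held no exact motif and 1 site with a single mismatch, G3T against GCGGGGGCG (counted from 1 at the 5′ end of the motif), 18 bp downstream of the TSS. With 50 bp added to each side of the peak, an exact match was included. The site is shown in capitals with 10 bases to each side, from chr7:89404359-89404387 on the plus strand, which is that of the gene.
Fzd4: gccacagagcGCTGGGGCGgtgagaacag

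Fzd3, a receptor known for axon guidance and planar cell polarity, had 2 peaks of similar IDR. The one in the first intron, at chr14:65261746-65261995, was centred 593 bp downstream of a TSS, with an IDR of 0.00131, a GC content of 74.8%, 32 CpGs and an exact match of both forms of the motif, which overlap by 3 bases. It was the only one of the 20 peaks with 2 exact sites. The other, at chr14:65266432-65266695 with an IDR of 0.00147, was centred 4100 bp upstream of Fzd3 but 55 bp from a TSS of Fbxo16, an F-box gene. With 4 CpGs and a GC content of 49.6% it was unlike the intronic one, and it held neither an exact motif nor a site with 1 mismatch. The intronic peak is shown whole on the strand of the gene, which is the minus strand, with the overlapping motifs in capitals.
Fzd3: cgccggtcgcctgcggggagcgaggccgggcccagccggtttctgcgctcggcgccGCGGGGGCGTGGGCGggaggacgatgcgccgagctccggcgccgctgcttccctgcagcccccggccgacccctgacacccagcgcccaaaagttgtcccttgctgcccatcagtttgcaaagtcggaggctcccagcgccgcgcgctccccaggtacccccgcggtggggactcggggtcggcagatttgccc

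The peaks of Fzd7 and Fzd9, both genes with a single annotated TSS, lay just upstream of it. The Fzd7 peak (chr1:59481947-59482210) was centred 346 bp upstream with an IDR of 0.00235, and the Fzd9 peak (chr5:135251224-135251475) 119 bp upstream with an IDR of 0.000858. Each had 25 CpGs, and the CpG ratio was 0.815 and 0.901. Neither held an exact motif, while sites with 1 mismatch numbered 2 in Fzd7 and 1 in Fzd9. The part of the Fzd9 peak upstream of the transcript, from chr5:135251231-135251475, is shown on the strand of the gene as an example of a CpG-rich start without an exact motif, with the site of 1 mismatch (G1A) in capitals.
Fzd9: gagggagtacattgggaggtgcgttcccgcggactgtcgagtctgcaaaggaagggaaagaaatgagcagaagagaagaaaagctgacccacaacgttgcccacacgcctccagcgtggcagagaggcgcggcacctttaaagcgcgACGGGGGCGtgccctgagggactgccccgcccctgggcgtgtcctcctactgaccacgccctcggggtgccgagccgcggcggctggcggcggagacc

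Of the co-receptors, Lrp6 had 1 peak and Lrp5 none. The Lrp6 peak (chr6:134521562-134521825) lay in an intron, 20021 bp from the nearest TSS and 45272 bp from the 5′ end of the gene, with an IDR of 0.000241. Its IDR was lower than those of the peaks of Wnt3, Wnt4 and Wnt11, which were also far from a start of their gene. Its GC content of 47.3% with 7 CpGs was unlike that of the peaks at the starts of Fzd4, Fzd7 and Fzd9, which had a GC content of 66.7 to 70.1%. It is printed on the minus strand, that of the gene, as an example of a peak in less GC-rich sequence, with the reverse complement of the site of 1 mismatch (G1A) in capitals.
Lrp6: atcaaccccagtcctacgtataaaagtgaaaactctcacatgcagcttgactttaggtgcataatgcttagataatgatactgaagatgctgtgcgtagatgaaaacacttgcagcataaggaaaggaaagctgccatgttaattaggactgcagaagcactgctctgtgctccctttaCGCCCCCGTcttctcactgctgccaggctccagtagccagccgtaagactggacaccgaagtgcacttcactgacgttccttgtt

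Dvl2 was the only Dishevelled gene with a peak, and it had 5. A pair of them lay at its own starts. The peak at chr11:70000451-70000700 was centred 20 bp upstream of the 5′ end of the gene and had an IDR of 9.37e-08 (rank 881 of all peaks). The next one, at chr11:70000729-70000901, began 28 bp further on, was centred 6 bp upstream of another TSS, in the 5′ untranslated region, and had an IDR of 2.69e-05. The first held no site even with 1 mismatch, whereas the second held an exact GCGGGGGCG, which is shown in capitals with 10 bases to each side from chr11:70000764-70000792 on the plus strand, that of the gene.
Dvl2: cgcaggcgcgGCGGGGGCGcttagtcctg
The other 3 peaks lay upstream and were nearer to the start of another gene. The peak 8980 bp upstream, with an IDR of 9.35e-07, was 24 bp from a TSS of Gabarap, an autophagy gene, and those 3773 and 3362 bp upstream were 91 and 124 bp from a TSS of Phf23, which encodes a PHD finger protein. The IDR of the pair at Phf23 was 0.0132 and 0.0105, the highest of the 20. Without these 3 peaks Dvl2 keeps 2, both at its starts. Among Dvl1, Dvl2 and Dvl3, which encode related scaffold proteins, the nearest peaks were thus 14982, 6 and 18380 bp from a TSS.

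**Figure D2:**
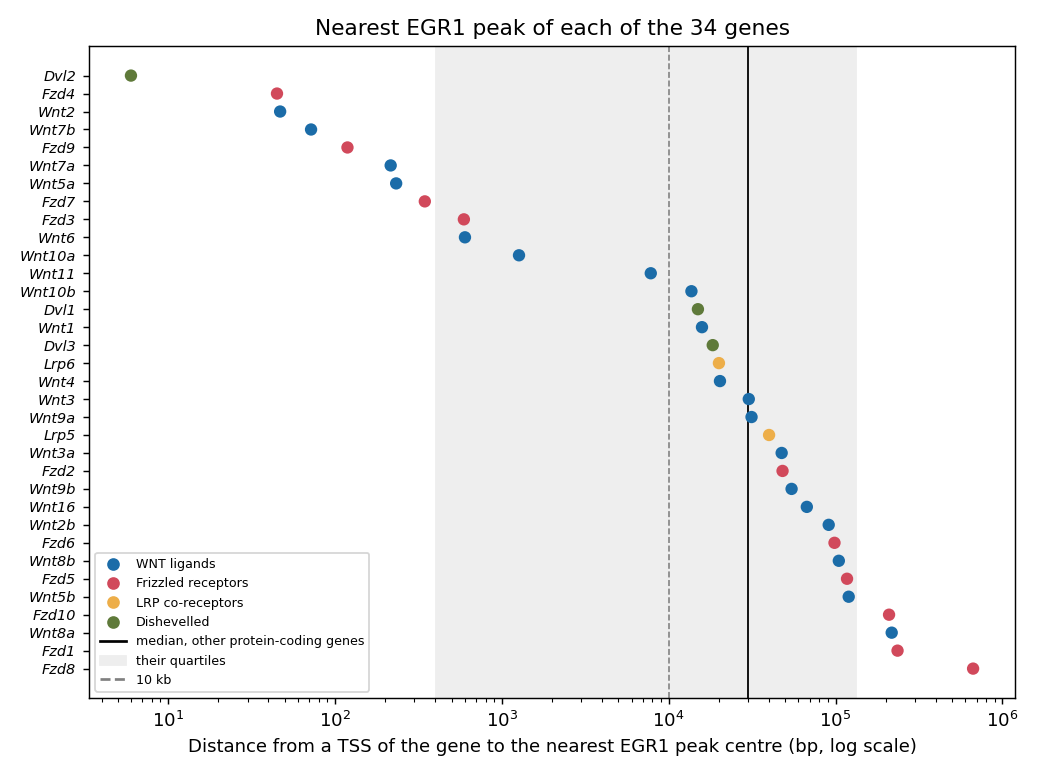
Distance in bp from a TSS of each of the 34 genes to the centre of the nearest EGR1 peak (x axis, logarithmic), one point per gene coloured by role, with the median (line) and quartiles (grey band) of the 21904 other protein-coding genes and a dashed line at 10 kb. Distances run from 6 bp at Dvl2 to 667628 bp at Fzd8; Wnt3, Wnt4 and Lrp6 are right of the dashed line and have their peak in the gene body.

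The 19 genes without a peak were Wnt1, Wnt2b, Wnt3a, Wnt5b, Wnt8a, Wnt8b, Wnt9a, Wnt9b, Wnt10b and Wnt16 among the ligands, Fzd1, Fzd2, Fzd5, Fzd6, Fzd8, Fzd10 and Lrp5 among the receptors, and Dvl1 and Dvl3. In 9 of them the nearest peak lay within 500 bp of a TSS of another coding gene. Such positions are common, since 6158 of all 11938 peaks on assembled chromosomes lay within 500 bp of a TSS. The count is therefore not a result about these genes. The peak nearest to Wnt10b, 13699 bp from a TSS, was at the start of Arf3 with an IDR of 1.10e-07. That of Dvl1, at 14982 bp, was at a start of Ints11, and that of Dvl3, at 18380 bp, at a start of Ap2m1. For Wnt1 the distance was 15845 bp. These 4 were the genes nearest to the limit of 10 kb from outside, and the assigned peaks nearest to it from inside were those of Dvl2 at 8980 bp and of Wnt11 at 7817 bp. In 7 genes (Wnt5b, Wnt8a, Wnt8b, Fzd1, Fzd5, Fzd8 and Fzd10) the nearest peak was more than 100 kb away. The peak nearest to Wnt3a and to Wnt9a was the same, 47573 and 31395 bp away.

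The shares of ligand and receptor genes with a peak had wide and overlapping intervals, and both intervals included the share of other genes. A peak was present at 47.4% of the ligand genes (27.3 to 68.3%), 41.7% of the receptor genes (19.3 to 68.0%) and 1 of 3 Dishevelled genes, against 39.6% of the 21904 other protein-coding genes. By distance alone, 11 of the 34 genes (32.4%, interval 19.1 to 49.2%) had a peak within 2 kb of a TSS, where the share of all protein-coding genes was 29.6%. Within 500 bp it was 8 of 34 (23.5%, 12.4 to 40.0%) against 25.8%. By role, a peak within 500 bp was present at 4 of 19 ligand genes, 3 of 12 receptor genes and 1 of 3 Dishevelled genes. All these shares are near the background, so the count of genes is not a result about the WNT genes as a family. Several peaks were found at 5.88% of the 34 genes and at 13.7% of the other genes.

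**Figure D3:**
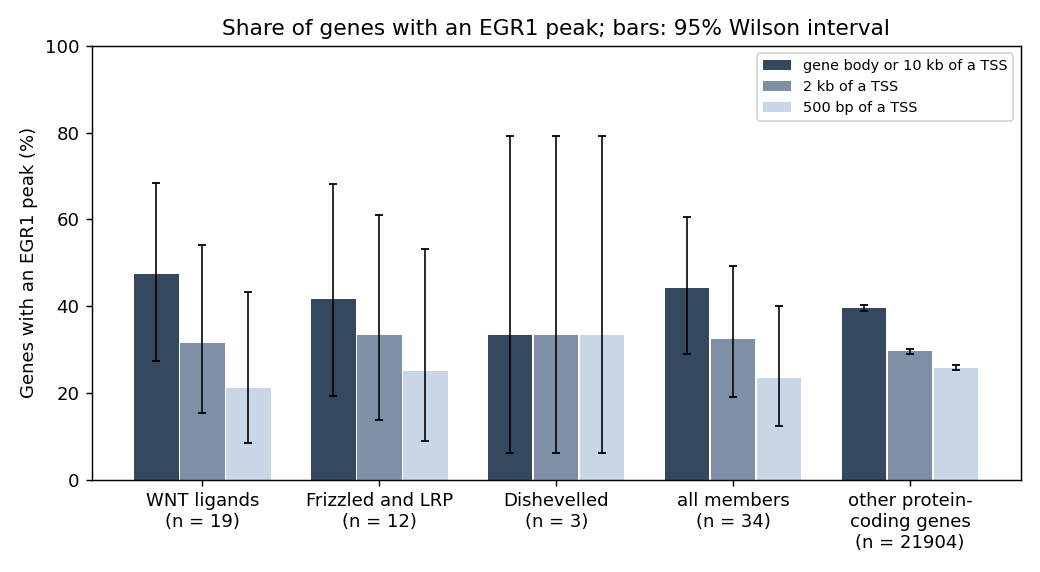
Share of genes (y axis, percent) with an EGR1 peak in the gene body or within 10 kb, within 2 kb and within 500 bp of a TSS (dark to light bars), for 19 WNT ligand, 12 Frizzled and LRP and 3 Dishevelled genes, all 34 together and 21904 other protein-coding genes; error bars are 95% Wilson intervals. The intervals of the ligands and receptors overlap each other and hold the value of the other genes at all 3 distances.

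A long gene offers more room for a peak, so the shares were also read by gene length. Below 10 kb a peak was assigned to 3 of 11 WNT genes (27.3%) and 27.4% of the other genes, and from 10 to 30 kb to 6 of 13 (46.2%) and 39.4%. From 30 to 100 kb the numbers were 5 of 7 (71.4%) and 47.5%, and at 100 kb and over, which holds Wnt5b, Lrp5 and Lrp6, 1 of 3 and 61.6%. The median length was 22238 bp for the ligand genes and 6584 bp for the receptor genes, most Frizzled genes being short.

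The 5′ ends of these genes were CpG-rich more often than those of other genes, but the share with a peak within 500 bp of a TSS was not higher. Any annotated TSS was counted for the peaks, so the Wnt5a peak, 6934 bp from the 5′ end, is included. In the 500 bp to each side of the 5′ end, a CpG ratio of at least 0.6 with a GC content of at least 55% was met by 28 of the 34 genes (82.4%), by all 12 receptor and 3 Dishevelled genes and by 38.2% of the other genes. Among those 28, 7 had a peak within 500 bp of a TSS, or 25.0% (interval 12.7 to 43.4%). Among the 8378 other protein-coding genes with such a start the share was 46.5%. No test was made of this difference, and these limits were set after the positions of the peaks were known. With the gene body and 10 kb counted, the shares were 46.4% (29.5 to 64.2%) and 61.7%. The 15 genes with a CpG-rich start and no assigned peak were Wnt2b, Wnt3a, Wnt5b, Wnt9a, Wnt9b, Wnt10b, Fzd1, Fzd2, Fzd5, Fzd6, Fzd8, Fzd10, Lrp5, Dvl1 and Dvl3.

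The share of starts with the motif was near that of other genes with CpG-rich starts. GCGTGGGCG or GCGGGGGCG occurred in the same window of 500 bp to each side of the 5′ end in 7 of the 34 genes (20.6%, interval 10.3 to 36.8%), and in 9.16% of all protein-coding genes, with no test of the difference. All 7 had a CpG-rich start, and among CpG-rich starts the share was 25.0% of the 28 (12.7 to 43.4%) and 19.6% of all 8406. The 7 were Wnt2, Wnt3a, Wnt6, Wnt7a, Fzd4, Fzd7 and Dvl2. All but Wnt3a had an assigned peak, which makes 6 of 7, against 9 of the 27 genes without a match. Over all protein-coding genes the shares were 79.2% of 2009 and 35.6% of 19929, so the order of the shares was the same in the whole genome. In Wnt6, Fzd4 and Fzd7 the match lay outside the peak itself. Inside the peaks an exact match was found in 4 of 20 (20.0%, interval 8.07 to 41.6%), against 16.6% of all peaks. Those 4 were the peaks of Wnt2, Wnt7a, Fzd3 (the intronic one) and Dvl2. With 1 mismatch allowed, 15 of the 20 peaks and 69.8% of all peaks held a site. The 5 without one were the peaks of Wnt4, Wnt6 and Wnt11, the Fzd3 peak at Fbxo16 and the Dvl2 peak of lowest IDR.

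The IDR of these peaks was on the whole higher than that of all peaks, without a test of the difference. The median was 0.00148 over the 20 peaks, against 0.000325 over all peaks on assembled chromosomes. An IDR of 0.001 or less was found for 8 of the 20 (40.0%) and for 59.5% of all peaks. By role the median was 0.00315 for the 9 ligand peaks, 0.00108 for the 6 receptor peaks and 2.69e-05 for the 5 Dvl2 peaks. Keeping only peaks with an IDR of 0.001 or less left 6 genes (Wnt2, Wnt7a, Fzd4, Fzd9, Lrp6 and Dvl2), or 17.6% (interval 8.35 to 33.5%), where all protein-coding genes had a share of 29.0%. The ligand genes then numbered 2 of 19 and the receptor genes 3 of 12. The 9 peaks within 500 bp of the gene's own TSS had a median IDR of 0.000713 and a median CpG ratio of 0.815. All peaks within 500 bp of any TSS had a lower median IDR, 6.325e-05, and a median CpG ratio of 0.792. The 11 peaks farther away had a median IDR of 0.00315 and a CpG ratio of 0.641, against 0.00103 and 0.326 for all peaks farther than 500 bp from any TSS. These sets are not alike, since 4 of the 11 lay within 500 bp of a TSS of Gabarap, Phf23 or Fbxo16. Widths were 107 to 264 bp with a median of 255 bp, against 250 bp for all peaks.

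**Figure D4:**
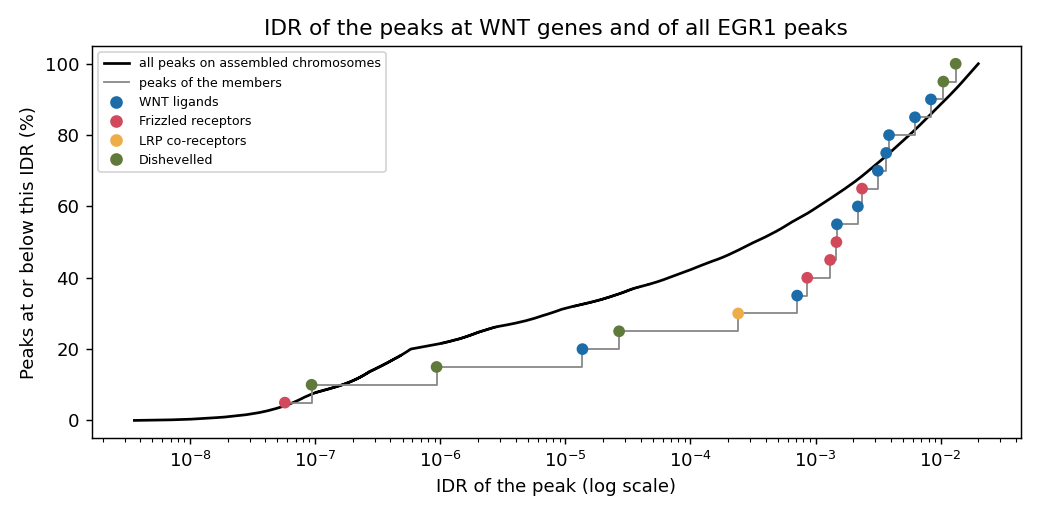
Cumulative share (y axis, percent) of the 20 EGR1 peaks of the WNT genes (steps, points coloured by role) and of all 11938 peaks on assembled chromosomes (black line) at or below each IDR (x axis, logarithmic). At an IDR of 0.001 the WNT peaks have reached 40.0% and all peaks 59.5%; the points at the lowest IDR belong to Fzd4 and Dvl2.

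The other genes of the pathway, taken from a list of 68 sorted by role, had a peak in 39 cases (57.4%, interval 45.5 to 68.4%), against the same background of 39.6%. That background depends on gene length, with 27.4% of other protein-coding genes below 10 kb and 61.6% at 100 kb and over. The 68 genes were not split by length, and the difference from the background was not tested. Of the genes of the destruction complex, which holds beta-catenin low, 10 of 12 had a peak and all 10 within 500 bp of a TSS. Over all protein-coding genes 25.8% had a peak within 500 bp of a TSS. Most genes of the complex, however, have 5 or more annotated TSSs and a CpG-rich start. Of other protein-coding genes with 5 or more TSSs, 58.0% had an assigned peak. Of those with a CpG-rich start, 46.5% had a peak within 500 bp of a TSS. No test was made against such genes. Gsk3a and Axin2, a kinase and a scaffold of the complex, had 2 each, with a lowest IDR of 0.00218 and 0.00306. Their peaks nearest to a TSS had an IDR of 0.0092 and 0.00354. Over the 10 genes the lowest IDR ran from 2.67e-08 to 0.00459, and it was 0.001 or less in 6. Only Csnk1e and Btrc had none. Of the nuclear effectors 9 of 14 had a peak, with 3 at the co-repressor gene Tle3 (lowest IDR 4.37e-05) and 2 at the TCF factor gene Tcf7l1 (9.38e-08). The nearest Tle3 peak (IDR 0.0035) lay 9 bp downstream of a TSS, and the nearest Tcf7l1 peak (IDR 1.31e-06) 14036 bp upstream of one. Both assigned Tcf7l1 peaks therefore lay in the gene body, farther than 10 kb from any TSS of the gene. The gene of beta-catenin itself, Ctnnb1, had none, nor had Tcf7, Tcf7l2, Pygo1 and Tle4.

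Of the secreted antagonists and their receptors, 7 of 15 had a peak, with 2 each at Kremen1 and Kremen2, the receptors of Dickkopf proteins, with a lowest IDR of 4.52e-08 and 4.95e-08. At Kremen2 that was not the peak nearest to the TSS, which lay 214 bp upstream with an IDR of 0.000149. The genes of this class without a peak were Dkk1, Dkk4, Sfrp1, Sfrp2, Frzb, Sfrp4, Sfrp5 and Sostdc1. Of the R-spondin axis, which sets the level of Frizzled receptors at the membrane, 1 of 9 genes had a peak, Znrf3, with a high IDR of 0.0196. Rspo1, Rspo2, Rspo3, Rspo4, Lgr4, Lgr5, Lgr6 and Rnf43 had none. Of the genes of WNT secretion, Porcn, the acyltransferase of WNT ligands, had 1 peak (IDR 0.0183) and Wls, their carrier, none. Of the non-canonical and polarity genes 11 of 16 had a peak. Among them, Ror2, a WNT5A receptor, had 2 (lowest IDR 6.44e-05), and Prickle1, a polarity gene, had 2 (lowest IDR 0.000244). The nearest Ror2 peak (IDR 0.00467) lay 154558 bp downstream of a TSS, and the nearest Prickle1 peak (IDR 0.00119) 41 bp upstream of one. Ror1, Vangl1, Nkd1, Nkd2 and Invs had none. Within 500 bp of a TSS a peak was present at 6 of 14 nuclear effectors and 4 of 15 antagonists and their receptors. In the same window it was present at 3 of 16 non-canonical and polarity genes (18.8%), below the 25.8% of all protein-coding genes. For the R-spondin axis and secretion the counts were 1 of 9 and 1 of 2. The classes differ in size and gene length, their intervals are wide, and no test was made between them. Nearer starts of neighbouring genes are not given for the peaks of these other pathway genes.

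**Figure D5:**
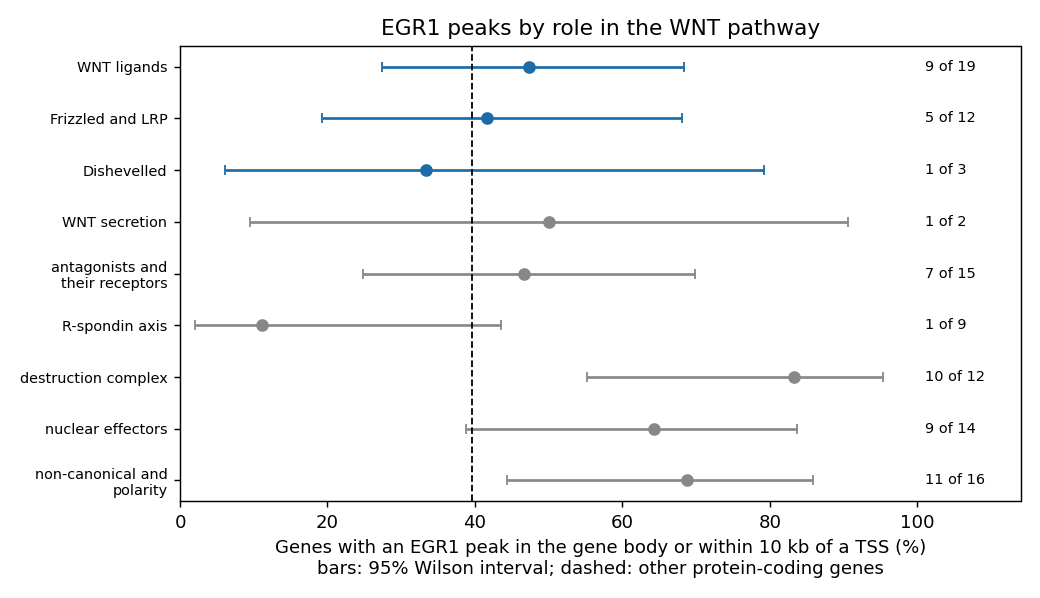
Share of genes (x axis, percent) with an EGR1 peak in the gene body or within 10 kb of a TSS, by role in the WNT pathway, with 95% Wilson intervals and the counts at the right; blue marks the 34 genes described here, grey the other pathway genes, and the dashed line the 39.6% of other protein-coding genes. The destruction complex (10 of 12) and the R-spondin axis (1 of 9) are the highest and the lowest class.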

How the data were processed

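EGR1 ChIP-seq was performed by the authors on pooled frontal cortices in 2 experiments. After trimming, they aligned reads to mm10 using Bowtie (the submitters' processing notes name Bowtie2 2.2.9), called peaks with SPP, compared the experiments by IDR and kept peaks with an IDR of at most 2%. The deposited IDR of each merged peak is read like a q-value. Depth is unknown, the single experiments were not analysed here, nor was input DNA.

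Peak starts were taken as counted from 0, as BED defines them, and are printed counted from 1. Genes and TSSs were those of GENCODE M21, all annotated transcripts counted, and sequence was that of GRCm38.p6. The 76 peaks on scaffolds were left out. The distance of a peak is that of its centre from the nearest TSS of the gene. All members are described. In each class of other pathway genes, the 2 with the most peaks (ties broken by the lowest IDR, so that others with as many peaks may be unnamed) and all without a peak are named. Neighbours are named where their TSS is nearer to a member's peak than the member's own; further neighbours were named after their values were seen. Members and lists were chosen with earlier results of these data known. No test was run for this reason, and 1 merged list holds no replicates to compare. Alternatives were other IDR limits, distances, overlap, TSS sets and nearest-gene assignment. Sequence of chromosome 18 (Wnt8a and Fzd8) is not shown. Python 3.11.15, numpy 2.4.6, pandas 2.3.3, scipy 1.17.1, pysam 0.24.0 and matplotlib 3.10.9 were used, and the scripts were tested on simulated data.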

Additional observations from a re-analysis of the deposited data

How the results depend on the processing

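The peak list gives 1 value per peak for both experiments together, so no experiment could be left out, and No paired analysis was possible because the labels give 1 merged list and no numbered samples. Of 61 alternative values, 49 stayed within the 95% interval of the reported share (or within 1.5 times a count) and 12 did not. With an IDR of 0.001 or less, the share of ligand genes with a peak fell to 10.5%, that of all 34 genes to 17.6%, the share with a peak within 2 kb of a TSS to 14.7% and the number of distinct peaks to 8. The share of other protein-coding genes, whose interval is narrow, was 37.0% with an IDR of 0.01 or less and 29.0% with 0.001 or less, 36.0% and 34.1% with 5 kb and 2 kb in place of 10 kb, 37.2% without the gene body, 38.4% with only the 5′ end of the gene record as TSS, and 34.8% with each peak given to the nearest coding TSS alone. The share of the 34 genes' peaks with the motif rose to 75.0% with 1 mismatch allowed. Without the gene body, Wnt3, Wnt4 and Lrp6 lost their peak. Wnt11 lost its peak with 5 kb, with 2 kb and with the gene record's 5′ end. The assignment to the nearest coding TSS alone had no limit of distance. With it Wnt3 lost its peak and Wnt9a gained one that lay 31395 bp away. Restricting the count within 500 bp to CpG-rich starts, an alternative chosen after seeing the data, gave 25.0%, and restricting the motif in the start window likewise gave 25.0%.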
